A study of Homo sapiens and Mus musculus with 24 samples.

Results

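The response of PIK3CA knock-in MCF10A cells to the PI3K alpha inhibitor BYL719 was described from 6 RNA-seq libraries, 3 treated with BYL719 and 3 with the solvent DMSO, out of 24 libraries in the series. The libraries were taken by their labels, not by any measured value. MCF10A cells are human mammary epithelium, immortal in culture and not tumorigenic. The knock-in (KI) line is heterozygous for PIK3CA H1047R, and it was bought from Horizon together with its isogenic wild-type parental line. KI cells received DMSO or BYL719 (alpelisib) at 1 uM for 4 h. The 6 libraries of the parental line, treated in the same 2 ways for 4 h, entered the model as further groups. The remaining 12 libraries of the series are of mouse embryonic fibroblasts and were not used. The sources used here do not say whether the replicates of a group came from separate cultures, or whether the KI line is 1 clone. P-values therefore measure only the spread between these libraries, which may be technical, and the edit and the clone cannot be told apart wherever the lines are set side by side.

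PI3K alpha, whose catalytic subunit p110 alpha is the product of PIK3CA, makes the membrane lipid PIP3 downstream of growth factor receptors, and H1047R is a common activating change of that subunit in breast cancer. PIP3 recruits and activates the kinase AKT, which keeps FOXO transcription factors out of the nucleus and relieves the inhibition of mTORC1. When the pathway is inhibited, FOXO factors enter the nucleus and activate genes of fasting metabolism, growth arrest and growth factor reception. mTORC1 promotes ribosome production and the processing of SREBP factors, which drive sterol and fatty acid synthesis. ERK signalling is a parallel route from the same receptors.

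Levels are in CPM, deposited transcript counts summed to genes and scaled to the library size. A gene was called when its Benjamini-Hochberg adjusted p was under 0.05 over all 21079 genes tested with edgeR's quasi-likelihood test, fitted to 12 MCF10A libraries, and "rose" and "fell" are used of such genes. Errors of log2 changes are standard errors (SE), errors of levels are standard deviations (SD), and n = 3 libraries in every group. The 6 KI libraries held 129903961 to 142599972 estimated read pairs each. Basal mammary markers summed to 17470 to 18790 CPM in KI DMSO and 18664 to 19829 CPM in KI BYL719. Luminal markers summed to 3536 to 4697 CPM and 3432 to 3877 CPM, nearly all of it from KRT7, KRT8 and KRT18, while KRT19, PGR, ELF5, TFF1 and TFF3 were at or near 0. The label of a mammary epithelial line was thus met on the basal side. In bulk RNA, a change in the number of cells of a type and a change of RNA per cell cannot be told apart.

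The edited gene was examined first. PIK3CA (GRCh38.p14 chromosome 3, 179148126 to 179240093, as annotated by RefSeq) stood at 44.5, 34.4 and 42.7 CPM in KI DMSO 1, 2 and 3 and at 73.1, 70.1 and 69.8 CPM in KI BYL719 1, 2 and 3. Every BYL719 library lay above every DMSO library. The log2 change was 0.81 ± 0.08 (adjusted p = 1.7e-05), and 0.69 without KI DMSO 2. Gene sums do not separate the alleles, so these values check neither the edit nor its zygosity.

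In KI cells 5964 of 21079 genes were called, 28.3% of those tested: 3186 rose (15.1%) and 2778 fell (13.2%). Most changes were small. At 1.5-fold or more, 1107 genes rose and 484 fell, and at 4-fold or more 93 rose and 22 fell. Of genes with a protein-coding transcript, 5088 of 14840 were called, and of the others 876 of 6239, of which 649 rose and 227 fell. The median log2 change over all genes was 0.02.

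KI DMSO 2 stood apart from its group, and the results were computed with and without it. On the second principal component of the 12 libraries (14.4% of the variance) it lay at 54.1, with KI DMSO 1 and 3 at 14.1 and 17.1. The chi-square statistic of counts divided by its degrees of freedom was 9.39 for KI DMSO 1 and 3, 166 or 145 for pairs with KI DMSO 2, 11.7 for KI BYL719 2 and 3, and 43.1 or 37.9 for pairs with KI BYL719 1. KI DMSO 2 differed from KI DMSO 1 and 3 by transcript length: in 10 equal bins of genes by effective length, its median log2 difference ran from 0.34 in the shortest bin (median 546 nt) to -0.39 in the longest (6141 nt). The fitted response ran the opposite way, from -0.12 to 0.22 with KI DMSO 2, from -0.00 to 0.08 without it, and from -0.02 to 0.05 in parental cells. Of 154 named genes that were called, 101 had a log2 change that moved by at most 0.1 when KI DMSO 2 was left out, 53 moved by more, the largest move was 0.23, and 4 lost the call. List counts are given both ways. Without KI DMSO 2, 6977 of 21525 genes passed (32.4%), with 3327 rises (15.5%) and 3650 falls (17.0%). Of the genes called with all libraries, 5327 were also called with the same sign without KI DMSO 2, and 0 with the opposite sign. Of 1591 genes called at 1.5-fold or more, 1343 stayed called without it.

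**Figure D1:**
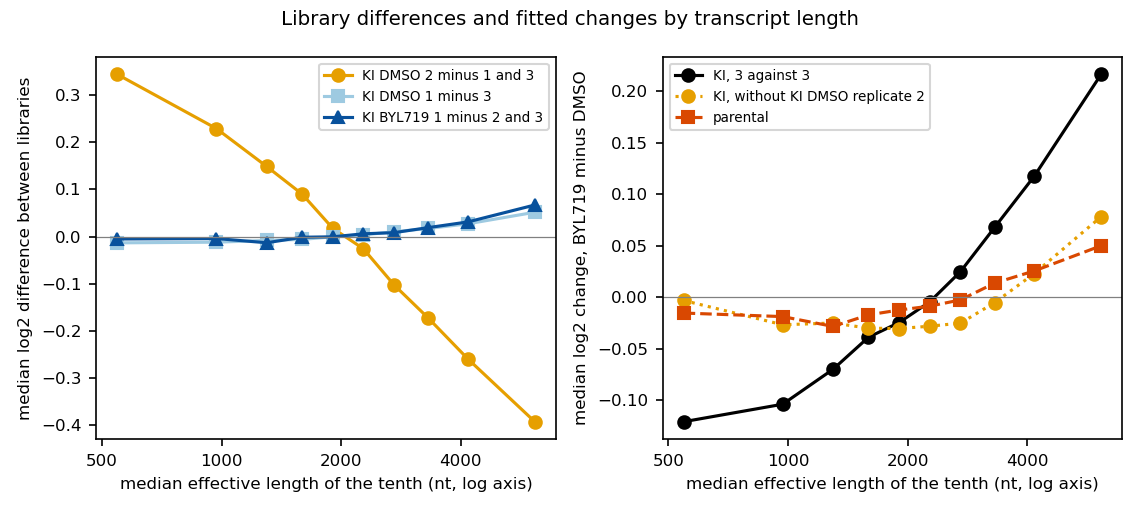
Median log2 difference (y axis) against the median effective transcript length of 10 bins of genes (x axis, nt, log axis). Left, 1 KI library against others of its group; right, the fitted response to BYL719 in KI cells with and without KI DMSO 2 and in parental cells. KI DMSO 2 runs from 0.34 in the shortest genes to -0.39 in the longest, and the response with it slopes the opposite way, from -0.12 to 0.22.

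Genes that FOXO factors are known to activate rose together. Of 41 members of the list (the FOXO genes and known targets), 37 passed the filter on low counts. Of these, 32 rose and 0 fell, against 15.1% and 13.2% of all genes. Their median log2 change was 0.86 against 0.02 over all genes. Without KI DMSO 2 the counts were again 32 and 0 and the median 0.77. The 5 tested members that were not called were GADD45A, FOXO6, TRIB1, BNIP3 and SOD2. The list was written with earlier results of these data known, so its direction is a description.

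The leading member was PDK4 (chromosome 7, 95583499 to 95596516), the kinase that switches off pyruvate dehydrogenase in fasting. It was measured at 18.3, 14.8 and 16.3 CPM in KI DMSO and 155, 196 and 202 CPM in KI BYL719. The groups were far apart, with an 11.2-fold rise (log2 3.48 ± 0.12, adjusted p = 7.2e-09). TCP11L2 went from 3.18, 2.22 and 3.12 CPM to 16.7, 19.7 and 19.3 CPM (log2 2.71 ± 0.12, adjusted p = 3e-08). YPEL3, a small protein tied to senescence and growth arrest, went from 6.52, 7.93 and 6.27 CPM to 26.1, 38.6 and 32.0 CPM (log2 2.22 ± 0.13, adjusted p = 2.4e-07). In neither gene did a DMSO library come near a BYL719 library. DEPP1, a protein of peroxisomes and autophagy induced by FOXO3, was scarce at 0.643, 1.12 and 0.800 CPM and reached 2.72, 3.29 and 2.86 CPM (log2 1.79 ± 0.17, adjusted p = 1.4e-05).

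The promoters of these members were searched for the letters bound by the FOXO family, GTAAACA, on both strands of the window from 250 bases before to 50 after the start (RefSeq, GRCh38.p14). The letters occurred in 8 of the 29 called members that have a window (27.6%), in 0 of 3 other members with one, in 3.42% of all 35116 windows and in 3.65% of the windows of 12361 genes tested. The 8 were TCP11L2, YPEL3, DEPP1, MXI1, TXNIP, FOXO4, PIK3CA and BCL2L11. Members were put on the list as known FOXO targets, so this share describes the list and is no test. The 3 with the largest rise are shown, 5′ to 3′ on the gene's strand and ending at the start (in YPEL3 at the end of the motif, which begins at the start), with the motif in capitals. TCP11L2 is chr12:106302483-106302732 (plus strand), YPEL3 is chr16:30096207-30096463 (minus) and DEPP1 is chr10:44978810-44979059 (minus).
TCP11L2: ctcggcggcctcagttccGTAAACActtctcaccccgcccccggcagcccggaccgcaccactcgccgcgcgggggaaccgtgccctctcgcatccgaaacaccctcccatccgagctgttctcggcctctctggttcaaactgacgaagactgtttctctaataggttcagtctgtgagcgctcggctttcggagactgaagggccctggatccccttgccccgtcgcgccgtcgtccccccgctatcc
YPEL3: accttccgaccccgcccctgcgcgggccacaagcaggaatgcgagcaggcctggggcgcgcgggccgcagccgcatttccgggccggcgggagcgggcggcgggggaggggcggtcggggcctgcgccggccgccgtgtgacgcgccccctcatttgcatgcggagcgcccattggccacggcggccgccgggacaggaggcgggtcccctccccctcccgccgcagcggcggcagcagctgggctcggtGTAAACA
DEPP1: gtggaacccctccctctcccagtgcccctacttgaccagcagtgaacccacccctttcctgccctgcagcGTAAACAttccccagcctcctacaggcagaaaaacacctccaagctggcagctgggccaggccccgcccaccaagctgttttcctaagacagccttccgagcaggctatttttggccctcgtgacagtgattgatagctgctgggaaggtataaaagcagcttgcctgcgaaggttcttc
The motif began 232 bases before the start in TCP11L2 and 180 before it in DEPP1. The start used for TCP11L2 lies within the annotated gene (106297935 to 106347003), not at its outer end. A window without these letters says nothing of sites elsewhere.

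The FOXO genes themselves rose by less than the median of the list. FOXO1 stood at 43.2, 33.0 and 42.2 CPM in KI DMSO and at 62.5, 66.6 and 62.9 CPM in KI BYL719 (log2 0.70 ± 0.08, adjusted p = 6.2e-05). FOXO3 (log2 0.52) and FOXO4 (0.85) also rose, and FOXO6, near 0.9 CPM, was not called. Targets that restrain growth rose as well. CCNG2, an unusual cyclin linked to arrest, had 49.2, 46.2 and 47.6 CPM in DMSO and 116, 122 and 124 CPM with BYL719 (log2 1.34 ± 0.04, adjusted p = 5.6e-09), with the 3 libraries of each group close together. CDKN1B, the CDK inhibitor p27, rose by log2 0.60 ± 0.05, the transcription repressor BCL6 by 1.66 ± 0.12, the autophagy protein gene GABARAPL1 by 1.07 ± 0.06 and the death ligand TNFSF10 by 1.58 ± 0.11. The MYC antagonist MXI1 rose by 1.07 ± 0.06 and the thioredoxin inhibitor TXNIP by 0.95 ± 0.04, the latter from 235, 227 and 230 CPM to 444, 449 and 441 CPM. At the small end, catalase (CAT) rose by 0.26 ± 0.04.

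**Figure D2:**
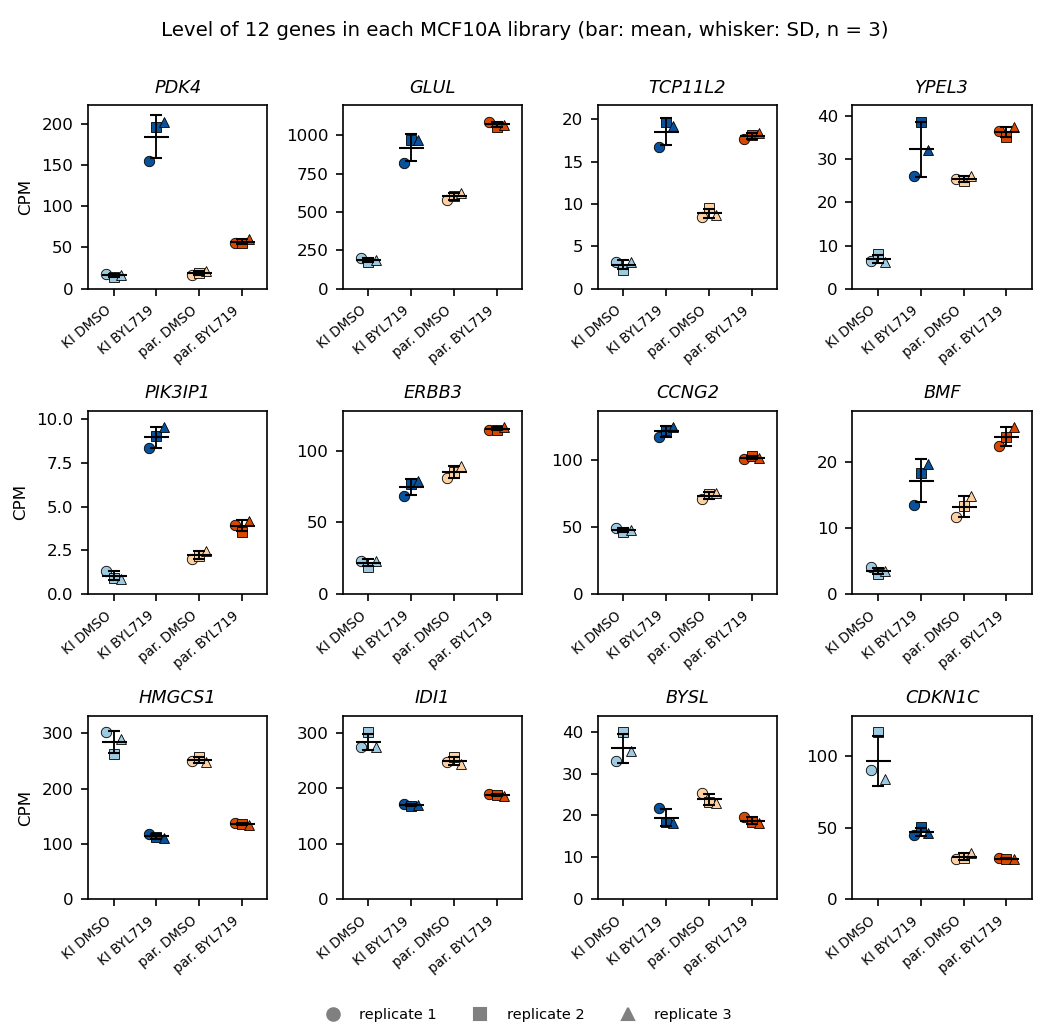
CPM (y axis, from 0) of 12 genes in each of the 12 MCF10A libraries by line and treatment (x axis), with symbols for the replicates, a bar for the mean and whiskers for the SD. In KI cells the DMSO and BYL719 points are apart in every panel, PDK4 from 14.8 to 18.3 CPM up to 155 to 202 CPM and HMGCS1 from 262 to 302 CPM down to 111 to 119 CPM.

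Of 27 tested receptor tyrosine kinases and adaptors, 16 rose and 3 fell (median log2 0.33), against 15.1% rises and 13.2% falls of all genes. Without KI DMSO 2, 16 rose and 6 fell (median 0.24), against 15.5% and 17.0%. Among coding genes above 1 CPM, 39.1% were called in either direction (48.3% without KI DMSO 2). List counts from here on are to be read beside these shares and were not tested against them. The receptor list shares ERBB3, IRS2, INSR and IGF1R with the FOXO targets. ERBB3, the kinase-impaired partner of ERBB2 and a main PI3K docking receptor, stood at 23.3, 18.9 and 23.1 CPM in DMSO and at 68.5, 76.8 and 78.7 CPM with BYL719. No value of one group came near the other (log2 1.78 ± 0.08, adjusted p = 3.7e-08). IRS2, the insulin receptor substrate, went from 20.6, 20.7 and 21.0 CPM to 65.4, 64.9 and 52.7 CPM (log2 1.56 ± 0.08, adjusted p = 6e-08). Its relative IRS1 was not called with all libraries (log2 -0.19, adjusted p = 0.36) and fell without KI DMSO 2 (log2 -0.40, adjusted p = 0.00028). The insulin receptor INSR (log2 1.24 ± 0.10) and IGF1R (0.86 ± 0.10) both rose.

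The adaptors GAB2 and GRB7 rose more than any receptor on the list. GAB2, a scaffold that binds the p85 subunit, was at 3.21, 2.34 and 3.02 CPM and reached 11.6, 11.8 and 13.1 CPM (log2 2.09 ± 0.10, adjusted p = 7.2e-08). GRB7, which is encoded beside ERBB2, was at 6.14, 8.04 and 6.78 CPM and reached 23.8, 27.9 and 27.1 CPM (log2 1.91 ± 0.09, adjusted p = 4e-08). ERBB2 itself moved from 69.5, 69.3 and 70.1 CPM to 81.6, 84.0 and 84.6 CPM (log2 0.26 ± 0.04, adjusted p = 0.00039), a change much smaller than that of its neighbour. The feedback inhibitor ERRFI1 rose by 1.13 ± 0.05. EGFR had DMSO values of 268, 158 and 252 CPM and BYL719 values of 353, 300 and 309 CPM. KI DMSO 2 was low, and the log2 change was 0.50 ± 0.15 with it and 0.29 without. EPHA2, the ephrin receptor, fell by 0.78 ± 0.18 and is described with the ERK genes.

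Among 19 tested genes for making or removing PIP3, 7 rose and 1 fell (without KI DMSO 2, 6 and 3). With 39.1% of coding genes above 1 CPM called (48.3% without KI DMSO 2), the number of calls does not set this list apart. The largest rise was that of PIK3IP1 (chromosome 22, 31281593 to 31292534), a membrane protein that inhibits p110. Its DMSO libraries had 1.34, 0.928 and 0.877 CPM and its BYL719 libraries 8.35, 9.03 and 9.55 CPM, an 8.53-fold difference (log2 3.09 ± 0.15, adjusted p = 5.6e-08). INPP5K, a phosphatase that removes a phosphate from PIP3, rose by 0.70 ± 0.04. The regulatory subunit PIK3R3 was the 1 that fell, from 58.7, 41.9 and 54.2 CPM to 35.7, 35.5 and 37.0 CPM (log2 -0.52 ± 0.09, adjusted p = 0.0015, and -0.66 without KI DMSO 2). PIK3CB and PIK3R1 were not called in either fit. Of 35 AKT and mTOR genes tested, 11 rose and 1 fell (10 and 5 without KI DMSO 2), with a median log2 change of 0.06, close to that of all genes. The number of calls does not set the AKT and mTOR list apart either. SGK1, an AKT-related kinase and FOXO regulator, rose from 22.8, 23.8 and 22.5 CPM to 38.5, 43.9 and 44.2 CPM (log2 0.87 ± 0.06, adjusted p = 1.2e-06). RICTOR, the defining subunit of mTORC2, had DMSO values of 45.6, 27.2 and 41.9 CPM and BYL719 values of 80.7, 75.5 and 75.8 CPM. KI DMSO 2 was its low library, and its log2 change was 1.02 ± 0.14 with it and 0.81 without. AKT1 and AKT2 were not called with all libraries.

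Of 16 tested Kruppel-like factors, zinc finger regulators of differentiation and metabolism, 10 rose and 2 fell with and without KI DMSO 2 (median log2 0.51 and 0.39). KLF9, at 11.0, 7.94 and 9.21 CPM in DMSO, was at 23.7, 28.3 and 24.9 CPM with BYL719 (log2 1.45 ± 0.11, adjusted p = 2.5e-06). KLF7 (0.83), KLF6 (0.66) and KLF4 (0.57) also rose. KLF10, an early TGF-beta response gene, fell by 0.53 ± 0.11, and KLF16 by 0.52 ± 0.11.

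Fuel use genes were called in both directions. Of 14 genes of the pyruvate dehydrogenase axis 5 rose and 2 fell (3 and 2 without KI DMSO 2). The background is 39.1% called in either direction among coding genes above 1 CPM (48.3% without KI DMSO 2). This short list was not tested against it. PDK4 was far ahead of PDK2, which went from 5.58, 5.69 and 4.55 CPM to 9.89, 10.6 and 10.1 CPM (log2 0.95 ± 0.08, adjusted p = 6e-06). PDK4 rose per length from 6.46 ± 1.27 to 77.7 ± 10.5 TPM (transcript abundance corrected for length). GLUL (chromosome 1, 182378098 to 182391790), glutamine synthetase, was the most abundant of the 15 genes with the largest rise. Its DMSO libraries read 200, 177 and 187 CPM and its BYL719 libraries 821, 968 and 972 CPM, 4.89-fold higher with no overlap (log2 2.29 ± 0.07, adjusted p = 5.6e-09). Glutamate dehydrogenase (GLUD1) rose by 0.43 ± 0.06, and GOT1, ASNS and PSAT1, which use or make glutamate, fell by 0.24 to 0.27.

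Among 33 genes of glycolysis and the HIF response there were 4 rises and 9 falls (4 and 11 without KI DMSO 2). As 39.1% of coding genes above 1 CPM were called in either direction (48.3% without KI DMSO 2), these counts do not set the list apart. The 9 fallers were HK2, ALDOC, PFKFB3, PFKFB4, SLC16A1, SLC16A3, EGLN3, HIF1A and VEGFA, and most core enzymes, such as GAPDH, PKM and LDHA, were not called. HK2, the hexokinase tied to growth, fell from 48.3, 42.3 and 53.9 CPM to 35.9, 28.2 and 29.7 CPM (log2 -0.62 ± 0.10, adjusted p = 0.0006). The fructose-2,6-bisphosphate enzymes PFKFB3 and PFKFB4 each fell by 0.39, the lactate exporter SLC16A3 by 0.27 and the HIF hydroxylase EGLN3 by 0.63. KDM3A, a histone demethylase induced by HIF, rose by 0.81 ± 0.09, and the mitophagy receptor BNIP3L by 0.53 ± 0.04.

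Most genes of the sterol pathway fell. Of 25 tested genes of cholesterol synthesis and uptake, 19 fell and 1 rose (median log2 -0.36), and without KI DMSO 2 22 fell and 1 rose (median -0.31). The riser in both was INSIG2, which retains SREBP in the endoplasmic reticulum. HMGCS1, the enzyme that makes HMG-CoA for the pathway, had 302, 262 and 290 CPM in DMSO and 119, 112 and 111 CPM with BYL719, a 2.5-fold fall (log2 -1.32 ± 0.05, adjusted p = 2.1e-08). IDI1, which isomerises isopentenyl diphosphate, fell from 275, 301 and 274 CPM to 171, 168 and 170 CPM (log2 -0.74 ± 0.04, adjusted p = 3.5e-07). INSIG1, an SREBP target and its feedback inhibitor, fell from 160, 168 and 150 CPM to 96.8, 99.6 and 93.6 CPM (log2 -0.72 ± 0.05, adjusted p = 7e-07). All 3 were apart between groups.

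MVD, which makes isopentenyl diphosphate, fell by 0.71 ± 0.10, or by 0.55 without KI DMSO 2, where it read 191 CPM against 138 and 139 CPM. SQLE (log2 -0.45), MSMO1 (-0.51), CYP51A1 (-0.36), FDFT1 (-0.35) and LSS (-0.32) also fell. The gene of SREBP2, SREBF2, was not called in either fit.

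The windows of the sterol genes were searched for the CCAAT box, the letters bound by NF-Y beside SREBP (CCAAT on both strands). This motif was chosen after a sterol response element, TCACCCCAC, had been searched on both strands, which was in 0 of the 15 fallers with a window, in 1 of 4 other members and in 0.430% of all windows. CCAAT occurred in 14 of the 15 fallers with a window (93.3%), in 2 of 4 other members, in 34.6% of all windows and in 42.5% of those of genes tested. The 3 fallers with the largest change are shown up to the start, with CCAAT or its complement ATTGG in capitals. HMGCS1 is chr5:43313413-43313662 (minus strand), IDI1 is chr10:1048887-1049136 (minus) and INSIG1 is chr7:155297628-155297877 (plus).
HMGCS1: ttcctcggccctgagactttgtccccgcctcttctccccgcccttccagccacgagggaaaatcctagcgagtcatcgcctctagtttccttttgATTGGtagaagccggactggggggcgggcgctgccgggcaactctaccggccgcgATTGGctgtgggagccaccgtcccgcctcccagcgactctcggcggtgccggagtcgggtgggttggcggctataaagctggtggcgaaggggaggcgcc
IDI1: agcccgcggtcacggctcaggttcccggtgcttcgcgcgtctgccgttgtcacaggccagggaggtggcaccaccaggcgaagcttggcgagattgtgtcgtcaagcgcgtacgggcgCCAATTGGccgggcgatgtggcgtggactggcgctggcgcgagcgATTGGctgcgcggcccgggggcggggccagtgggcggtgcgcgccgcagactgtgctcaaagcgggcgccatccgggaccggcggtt
INSIG1: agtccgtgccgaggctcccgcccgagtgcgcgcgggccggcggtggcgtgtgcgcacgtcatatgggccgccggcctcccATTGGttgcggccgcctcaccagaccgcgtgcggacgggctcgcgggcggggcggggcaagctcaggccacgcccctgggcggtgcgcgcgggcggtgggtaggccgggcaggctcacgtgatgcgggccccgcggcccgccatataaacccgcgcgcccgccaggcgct
HMGCS1 held 2 copies, IDI1 3, of which 2 overlap, and INSIG1 1. The start used for IDI1 lies within the annotated gene (1039152 to 1056704), not at its outer end. A match is a description of the letters and not a measured site.

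Of 19 fatty acid genes tested, 8 fell and 2 rose, and without KI DMSO 2 12 fell and 1 rose. Of all genes, 13.2% fell and 15.1% rose (17.0% and 15.5% without KI DMSO 2). The desaturase SCD was at 1136, 830 and 1042 CPM in DMSO and 771, 828 and 790 CPM with BYL719. KI DMSO 2 was its low DMSO library, and the log2 change was -0.33 ± 0.09 with it and -0.47 without, and it was not called without KI BYL719 3 (-0.33, adjusted p = 0.051). ATP citrate lyase (ACLY) fell by 0.31 (0.44 without KI DMSO 2) and SREBF1, the gene of SREBP1, by 0.39. Fatty acid synthase (FASN) was not called with all libraries (log2 -0.09, adjusted p = 0.43) and had -0.21 without KI DMSO 2 (adjusted p = 0.012).

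Amino acid carriers changed in both directions. Of 19 plasma membrane transporters tested, 11 rose and 2 fell (without KI DMSO 2, 11 and 4), against 15.1% rises and 13.2% falls of all genes. SLC7A2, a carrier of arginine and other cationic amino acids, went from 26.1, 17.9 and 24.8 CPM to 139, 134 and 138 CPM (log2 2.58 ± 0.12, adjusted p = 3.7e-08), the largest change on the list with groups far apart. SLC7A8 (log2 1.55), the glycine carrier SLC6A9 (1.00) and SLC43A1 (0.83) rose. SLC43A3, a purine carrier, fell by 0.63 ± 0.05 and the folate carrier SLC19A1 by 0.55 ± 0.06. On the list of 35 ATF4 targets and tRNA synthetases, 15 fell and 4 rose (21 and 3 without KI DMSO 2), most of them by little (median log2 -0.12). The shares of all genes given for the transporters apply here too. The pseudokinase TRIB3 fell by 0.61 ± 0.13 and CHAC1 by 0.52 ± 0.13, while the glutamine carrier SLC38A2 rose from 313, 261 and 313 CPM to 552, 520 and 551 CPM (log2 0.87 ± 0.06, adjusted p = 1.6e-06).

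Ribosome assembly factors fell and ribosomal proteins did not follow them. Of 40 genes of ribosome biogenesis, all tested, 33 fell and 0 rose (median log2 -0.35), and 36 and 0 without KI DMSO 2 (median -0.34). RRS1, a factor of large subunit assembly, went from 41.6, 50.4 and 45.6 CPM to 25.6, 22.1 and 21.6 CPM (log2 -0.99 ± 0.09, adjusted p = 7.4e-06). BYSL, needed for small subunit maturation, went from 32.9, 39.8 and 35.5 CPM to 21.8, 18.3 and 18.3 CPM (log2 -0.89 ± 0.08, adjusted p = 1.2e-05). Both had no overlap between groups. The RNA polymerase I subunits POLR1B (log2 -0.52), POLR1C (-0.59) and POLR1E (-0.49) and its initiation factor RRN3 (-0.43) fell. Nucleolin (NCL), an abundant nucleolar protein, fell by 0.15 ± 0.04. The E-box CACGTG was in the windows of 11 of 26 fallers with one (42.3%), in 2 of 6 other members and in 11.8% of those of genes tested. The list was chosen with earlier results of these data known, so these shares describe it and are no test.

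Of 30 cytosolic ribosomal proteins and elongation factors, 1 rose and 0 fell with all libraries (median log2 -0.06), and 18 rose and 0 fell without KI DMSO 2 (median 0.09). This list holds short genes, with a median effective length of 612 nt, and its median in KI DMSO 2 was 0.45 above that in KI DMSO 1 and 3 (log2). RPS6, for example, read 1085, 1584 and 1097 CPM in DMSO and 1144, 1182 and 1131 CPM with BYL719. The median of the list changed sign when that library was left out. EEF2, translation elongation factor 2, was the 1 called in both fits (log2 0.25 ± 0.05, and 0.19 without KI DMSO 2).

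**Figure D3:**
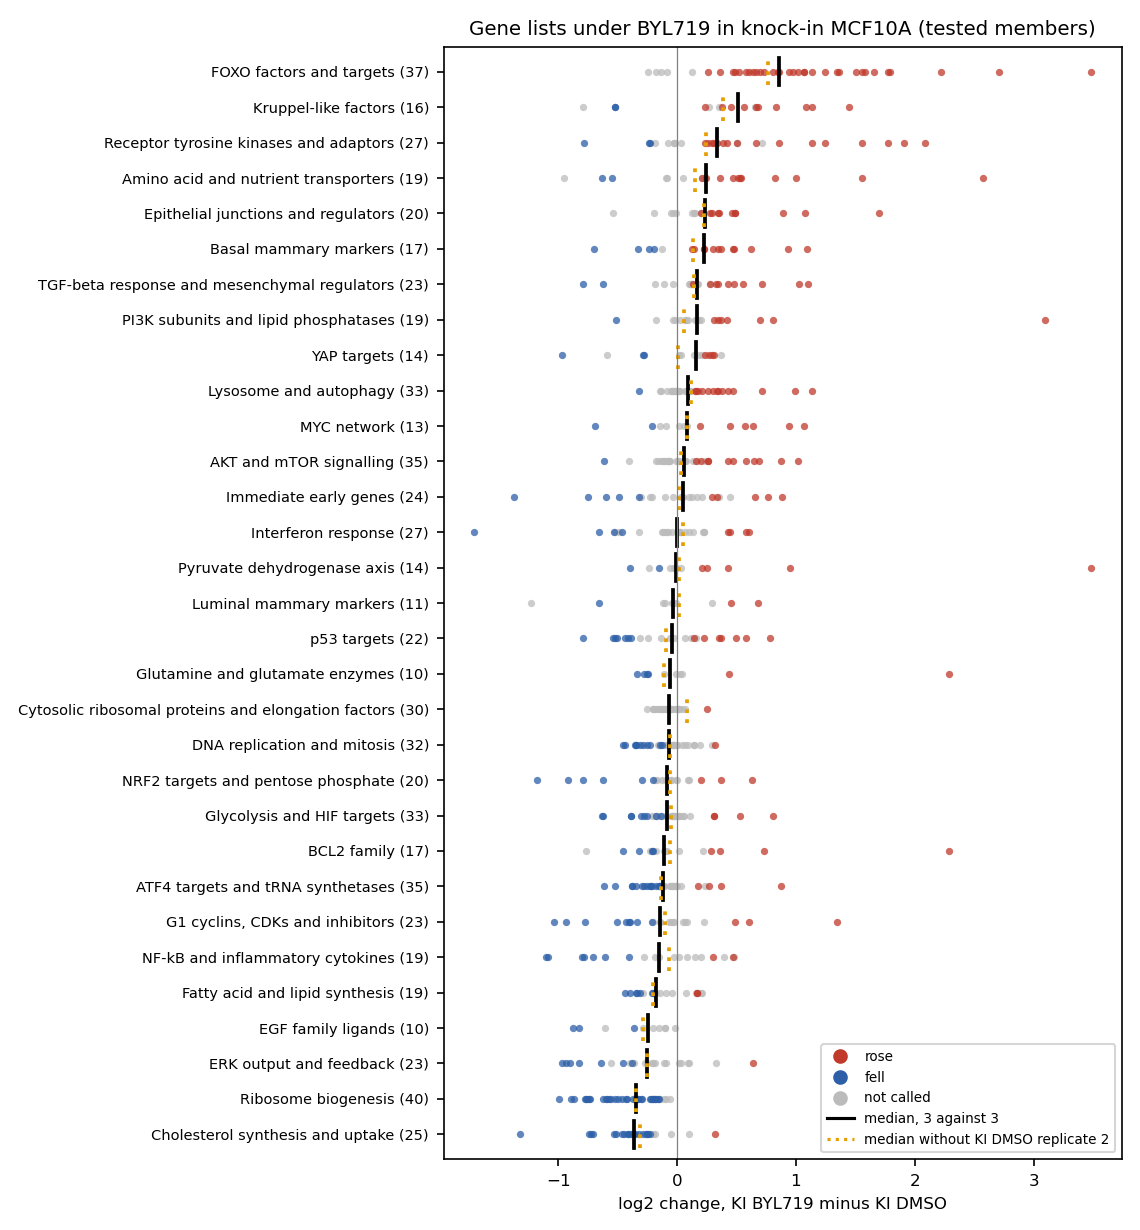
Log2 change of the tested members of the gene lists in KI cells (points), with the list's median with all libraries and without KI DMSO 2 (markers); the line at 0 is no change. FOXO targets lie highest (median 0.86) and cholesterol synthesis (-0.36) and ribosome biogenesis (-0.35) lowest.

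Of 23 genes that follow ERK activity, 7 fell and 1 rose (6 and 1 without KI DMSO 2), and 1 BYL719 library stood apart in them. The share called in either direction among coding genes above 1 CPM was 39.1% (48.3% without KI DMSO 2). The number of calls therefore does not set the ERK list apart, and the excess of falls over rises was not tested. FOSL1, an AP-1 subunit, stood at 35.7, 36.5 and 45.4 CPM in DMSO and at 28.8, 15.8 and 15.8 CPM with BYL719 (log2 -0.96 ± 0.21, adjusted p = 0.0043). DUSP5, a nuclear ERK phosphatase, stood at 8.83, 11.0 and 10.7 CPM and at 7.66, 4.51 and 4.17 CPM (log2 -0.90 ± 0.19, adjusted p = 0.0044). In both, KI BYL719 1 lay between the DMSO libraries and the other treated ones. Neither was called by edgeR with the KI libraries alone and KI DMSO 2 left out (adjusted p = 0.13 for each). Over the list KI BYL719 1 was higher than KI BYL719 2 and 3 by a median log2 of 0.49, and it was the highest treated library for 6 of the 7 fallers. For the FOXO, cholesterol and ribosome biogenesis lists the same difference was -0.08, 0.00 and 0.05. Mitochondrial transcripts took 1.95% of KI BYL719 1 and 2.99% and 2.95% of the other treated libraries, against 1.96% to 2.33% in KI DMSO. The part of either in these results was not tested.

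The direct ERK feedback genes DUSP6 and SPRY4 showed the same split. DUSP6 read 25.1, 29.5 and 32.3 CPM in DMSO and 35.3, 18.4 and 19.3 CPM with BYL719, so that the groups overlapped and the gene was not called (log2 -0.25, adjusted p = 0.42). SPRY2 was the 1 that rose, by 0.64 ± 0.06. CCND1, cyclin D1, fell more evenly, from 182, 173 and 201 CPM to 113, 86.8 and 92.1 CPM (log2 -0.93 ± 0.09, adjusted p = 2.1e-05). MYC was not called (log2 -0.09, adjusted p = 0.60).

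Of 24 immediate early genes, 5 rose and 5 fell in both fits. Of all 12206 coding genes above 1 CPM, 2328 rose and 2439 fell with all libraries (39.1% called). The counts of rises and falls therefore do not set this list apart. DUSP2 fell most, from 3.25, 4.58 and 3.77 CPM to 2.07, 1.38 and 1.03 CPM (log2 -1.37 ± 0.22, adjusted p = 0.00064). JUN fell by 0.75 ± 0.11, IER2 by 0.60 ± 0.08, and the nuclear receptor NR4A2 rose by 0.88 ± 0.10. FOS and EGR1 were not called. KI BYL719 1 was the highest treated library for all 5 fallers. Among 10 tested EGF family ligands, 3 fell and 0 rose (4 and 0 without KI DMSO 2). AREG, amphiregulin, was at 127, 189 and 146 CPM in DMSO and 111, 72.2 and 78.2 CPM with BYL719 (log2 -0.82 ± 0.16, adjusted p = 0.0027). EPGN fell by 0.87 ± 0.10 and TGFA by 0.36 ± 0.09, the latter not called without KI BYL719 2 (-0.29) or 3 (-0.32). KI BYL719 1 was again the highest treated library for all 3.

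**Figure D4:**
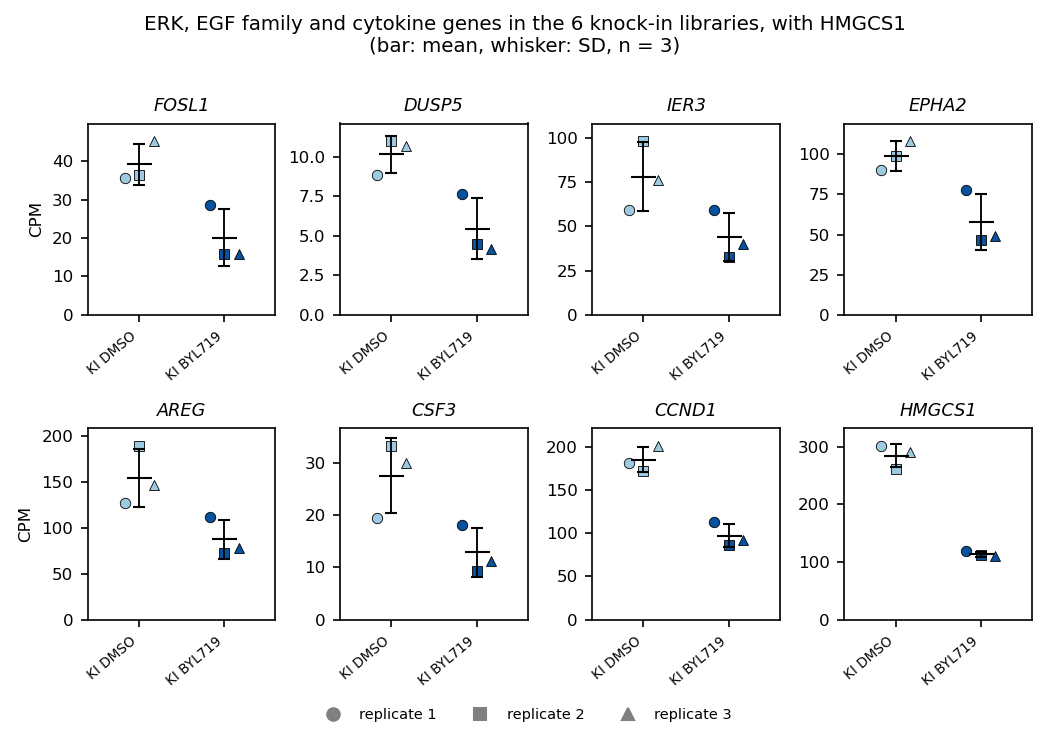
CPM (y axis, from 0) of 8 genes in the 6 KI libraries by treatment (x axis), with symbols for the replicates, a bar for the mean and whiskers for the SD. For FOSL1, DUSP5, IER3, EPHA2, AREG and CSF3, KI BYL719 1 lies above KI BYL719 2 and 3 and nearer to DMSO, whereas HMGCS1 reads 119, 112 and 111 CPM in the 3 treated libraries.

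Of 19 NF-kB and cytokine genes tested, 7 fell, 2 rose and 10 were not called, and without KI DMSO 2 5 fell and 4 rose. Their summed level was 389 to 427 CPM in DMSO and 414 to 450 CPM with BYL719. IL1A, interleukin 1 alpha, went from 15.6, 16.2 and 18.6 CPM to 10.4, 6.40 and 6.99 CPM (log2 -1.08 ± 0.15, adjusted p = 0.00022). IL1B fell by 0.80 ± 0.15 and the chemokine CXCL2 by 0.78 ± 0.17. CSF3, at 19.5, 33.4 and 30.0 CPM in DMSO and 18.2, 9.29 and 11.2 CPM with BYL719, fell with all libraries (log2 -1.10 ± 0.25, adjusted p = 0.0069) but was not called without KI DMSO 2 (adjusted p = 0.063). IER3 likewise lost its call without that library (log2 -0.82, adjusted p = 0.012, against -0.64, adjusted p = 0.099). KI BYL719 1 was the highest treated library for 5 of the 7 fallers. Of 27 interferon genes 4 rose and 4 fell, shares near those of all genes (15.1% and 13.2%), and without KI DMSO 2 8 rose and 3 fell. STAT2 (log2 0.61) and DDX58 (0.58) rose and IFIT1 (-0.66) fell.

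Of 23 tested G1 genes 9 fell, 3 rose and 11 were not called (11 fell and 3 rose without KI DMSO 2), against 13.2% falls and 15.1% rises of all genes, the risers being CCNG2, CDKN1B and RBL2 of the FOXO list. CDC25A, the phosphatase that activates CDK2, fell from a mean of 53.8 ± 3.30 to 31.5 ± 2.30 CPM (log2 -0.77 ± 0.06, adjusted p = 2.6e-06). CDKN1C, the CDK inhibitor p57, was at 90.1, 117 and 83.8 CPM in DMSO and 45.1, 50.5 and 46.3 CPM with BYL719, a fall of more than its spread (log2 -1.04 ± 0.10, adjusted p = 2.1e-05). CDKN1A, p21, fell by 0.50 ± 0.05. Of 32 replication and mitosis genes 11 fell and 1, TOP2A (log2 0.32), rose, and without KI DMSO 2 14 fell and 2 rose. The share called in either direction among coding genes above 1 CPM was 39.1% (48.3% without KI DMSO 2). The number of calls therefore does not set the replication and mitosis list apart. RRM2 (log2 -0.45), CDC6 (-0.44) and AURKA (-0.35) had the largest falls, and the median of the list was -0.07. With effective-length offsets RRM2 was not called (log2 -0.22, adjusted p = 0.0998).

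In the BCL2 family, BCL2L11 and BBC3 of the FOXO list rose, as did BMF, which is not on that list. BMF, a BH3-only protein, went from 4.03, 3.03 and 3.48 CPM to 13.5, 18.4 and 19.7 CPM (log2 2.29 ± 0.15, adjusted p = 7e-07). BCL2L11, which encodes BIM, went from 33.7, 23.5 and 30.0 CPM to 44.1, 51.7 and 48.7 CPM (log2 0.73 ± 0.11, and 0.58 without KI DMSO 2). The groups did not overlap in either. BBC3, which encodes PUMA, rose by 0.36 ± 0.09, and was not called without KI BYL719 2 (0.28). BAK1 fell by 0.45 ± 0.07 and PMAIP1 by 0.32 ± 0.06, so that of 17 members 4 rose and 4 fell in both fits. MCL1 was not called. Of 22 p53 targets 7 rose and 7 fell (7 and 9 without KI DMSO 2). For both lists the background is 39.1% called in either direction among coding genes above 1 CPM (48.3% without KI DMSO 2). Neither list was tested against it. TP53INP1 (log2 0.79) and SESN1 (0.58) rose, AEN (-0.79) and PLK2 (-0.54) fell.

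Among 33 lysosome and autophagy genes 14 rose and 1 fell, and 18 and 2 without KI DMSO 2. For this list and the NRF2 list below, the background is 39.1% called among coding genes above 1 CPM (48.3% without KI DMSO 2). Neither was tested against it. ULK1, the kinase that starts autophagy, went from 49.2, 46.5 and 47.7 CPM to 94.3, 112 and 109 CPM (2.2-fold, log2 1.14 ± 0.06, adjusted p = 1.4e-07). MITF, a regulator of lysosome genes, went from 9.13, 7.26 and 8.37 CPM to 16.4, 16.1 and 16.7 CPM (log2 0.99 ± 0.08, adjusted p = 2.5e-06). The autophagy receptor NBR1 rose by 0.71 ± 0.06. Lysosomal enzymes changed little, CTSB by 0.26 and HEXA by 0.17. The NRF2 and pentose phosphate list held 3 rises and 6 falls among 20 (5 and 7 without KI DMSO 2). OSGIN1 went from 27.9, 36.6 and 30.2 CPM to 15.7, 12.6 and 13.5 CPM (log2 -1.18 ± 0.10, adjusted p = 5e-06), and sulfiredoxin (SRXN1) fell by 0.79 ± 0.07, while GCLC, of glutathione synthesis, rose by 0.63 ± 0.05.

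Of 20 epithelial junction genes and regulators 11 rose and 0 fell (13 and 1 without KI DMSO 2). CLDN1, a tight junction claudin, went from 2.72, 2.81 and 3.25 CPM to 9.87, 9.40 and 9.21 CPM (log2 1.70 ± 0.08, adjusted p = 6.6e-08). The epithelial factors ELF3 (log2 1.07) and EHF (0.89) also rose, ELF3 not being called with effective-length offsets (0.76, adjusted p = 0.068). Of 17 basal markers 12 rose and 4 fell in both fits. TP63, the master regulator of basal epithelium, went from 30.5, 23.8 and 29.5 CPM to 57.7, 59.9 and 61.3 CPM (log2 1.09 ± 0.08, adjusted p = 1.5e-06). The desmosomal cadherins DSC3 (log2 0.93) and DSG3 (0.62) rose, whereas the keratins KRT5 (-0.19), KRT6A (-0.23) and KRT14 (-0.33) and stratifin (SFN, -0.70) fell. KRT14 has near-identical pseudogene copies, so its level is uncertain.

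Mesenchymal and TGF-beta genes did not move opposite to the epithelial ones. Of 23 tested 10 rose and 2 fell (12 and 1 without KI DMSO 2). ZEB2, a repressor of epithelial genes, went from 16.5, 12.8 and 15.3 CPM to 27.0, 31.8 and 32.3 CPM (log2 1.03 ± 0.10, adjusted p = 1.4e-05). TWIST1 rose by 0.48 ± 0.07 and SNAI1 fell by 0.79 ± 0.10. Among 14 YAP genes 4 rose and 3 fell (5 and 3 without KI DMSO 2), with tissue factor (F3) falling from 130, 140 and 159 CPM to 83.7, 63.5 and 71.4 CPM (log2 -0.97 ± 0.11, adjusted p = 5.4e-05). Of coding genes above 1 CPM 39.1% were called in either direction, and this short list was not tested against that share.

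Markers of other cell types were near the detection limit in most cases. Of 12 haematopoietic markers 10 were under 1 CPM in all KI libraries, with HBB at 0, and their sum was 22.4 to 23.2 CPM in DMSO and 25.5 to 26.6 CPM with BYL719. Of 8 endothelial markers 6 were under 1 CPM in all KI libraries, CDH5 was at 0 in the DMSO libraries and near 0 in the others, and the sums were 19.3 to 28.7 and 21.4 to 23.4 CPM, mostly from EGFL7. KDR rose, from 1.12, 0.613 and 0.954 CPM to 2.00, 2.20 and 2.09 CPM (log2 1.22 ± 0.17). Of 9 neural and adipocyte markers, only TUBB3 was well above 1 CPM, LEP was at 0, and the sums were 351 to 425 and 272 to 288 CPM. Fibroblast and muscle markers summed to 23.4 to 25.6 and 19.5 to 33.4 CPM, with MYOD1 at 0. KI BYL719 3 alone carried 4.37 CPM of COL1A2 and 2.13 CPM of COL3A1, where the other KI libraries had at most 0.156 and 0.104 CPM. COL1A2 was called (log2 3.77, adjusted p = 0.047), but without that library its log2 change was 0.01 (adjusted p = 0.99). The part of foreign RNA in other results was not tested.

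The largest changes included genes outside these lists. Among the 571 genes that were called at 1.5-fold or more, kept the call and direction without KI DMSO 2, did not overlap between groups, had a mean of at least 5 CPM in either group and had a coding transcript, 399 rose and 172 fell. CCDC85A had the largest rise of these, from 0.731, 0.488 and 0.592 CPM to 7.30, 7.64 and 7.03 CPM (12.1-fold, SE of the log2 change 0.15, adjusted p = 2.4e-08). HAS2, which makes hyaluronan, went from 3.61, 3.62 and 3.66 CPM to 22.8, 21.7 and 27.0 CPM (log2 2.72 ± 0.11, adjusted p = 2.5e-08). In these genes no treated library approached a DMSO value. The transcription repressor BACH2 (log2 2.56), the transporter ABCA6 (2.37), the guanylate-binding protein GBP2 (2.26) and KLHL24 (2.07) also belonged to the 15 largest rises.

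Under the same rule, the largest falls were smaller than the largest rises. The 22 genes that fell 4-fold or more were outside that rule. KRT16, a keratin of stressed and hyperproliferative epithelium, went from 138, 179 and 132 CPM to 54.3, 54.9 and 58.2 CPM (log2 -1.42 ± 0.09, adjusted p = 7.3e-07). HSPA1A, an inducible HSP70 chaperone, went from 417, 427 and 404 CPM to 179, 168 and 169 CPM (log2 -1.27 ± 0.05, adjusted p = 1.5e-08). Both have near-identical copies in the genome and their levels are uncertain to that extent. The mitochondrial cyclophilin PPIF fell by 1.03 ± 0.09, the small GTPase RHOV by 1.14 ± 0.13, the mitochondrial phospholipase PLD6 by 1.07 ± 0.11 and the tRNA modification enzyme YRDC by 0.98 ± 0.10. CXCR5, a chemokine receptor, had 12.4, 19.1 and 13.2 CPM in DMSO and 9.16, 7.76 and 4.81 CPM with BYL719 (log2 -1.04 ± 0.20, adjusted p = 0.0024), the least even of them.

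For some genes the estimated share of the leading transcript also moved. FOXO3-201 held 49.2% ± 0.777 of the FOXO3 TPM in DMSO and 65.0% ± 8.63 with BYL719. BACH2-210 went from 34.0% ± 6.90 to 54.4% ± 3.58, MXI1-201 from 39.4% ± 5.84 to 26.6% ± 1.68 and CCND3-203, the leading transcript of cyclin D3, from 81.4% ± 1.40 to 70.3% ± 1.04. FBXO32-204, a transcript with a retained intron, went from 35.2% ± 2.42 to 22.4% ± 4.29 of its gene. In these 5 genes the shares of the groups did not overlap. They are given without a test, since shares come from the division of shared reads among transcripts.

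In parental cells given the same dose, 302 of the genes tested were called (1.43%), 178 up and 124 down, and 297 of these were called in KI cells with the same sign. The comparisons in the 2 lines share no library, but share the fit's estimate of spread. Of 1591 genes called at 1.5-fold or more in KI cells, 1421 had the same sign in parental cells and 1577 had the larger change in KI cells. Risers among these 1591 had a median log2 change of 0.91 in KI and 0.26 in parental cells, and fallers -0.79 and -0.27. The 1591 were selected by their change in KI cells, so their larger change there follows in part from the selection. Of the 302 genes called in parental cells, 287 had the larger change in KI cells. The difference between the 2 responses was called for 606 genes (2.87%), 438 with the higher and 168 with the lower log2 change in KI cells. Of these 606, 560 changed in the same direction in both lines and more in KI cells, 46 had opposite signs and 0 changed less in KI cells. Without KI DMSO 2, 1874 genes were called for the difference, and without parental BYL719 1 there were 239.

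By list, against 2.87% of all genes, 21 of 37 FOXO members had a larger response in KI cells, 7 of 40 ribosome biogenesis members a larger fall and 3 of 25 cholesterol members (HMGCS1, IDI1 and CYP51A1). Of the 23 ERK genes and the 10 EGF ligands 0 were called for the difference, which at 2.87% of all genes sets neither list apart. For FOSL1 the difference was 0.04 ± 0.29 (adjusted p = 0.96). GLUL was among the genes with the clearest difference. Its parental levels were 604 ± 22.0 CPM in DMSO and 1071 ± 15.5 CPM with BYL719 (SD), against 188 ± 11.9 and 920 ± 86.4 CPM in KI cells, so that the groups lay farther apart in DMSO than under the inhibitor. The difference of the log2 changes was 1.46 ± 0.10 (adjusted p = 2.2e-05). ERBB3 was likewise lower in KI than in parental cells under DMSO, with 85.1 ± 4.07 and 115 ± 1.03 CPM in parental and 21.8 ± 2.50 and 74.7 ± 5.42 CPM in KI cells (difference 1.34 ± 0.11, adjusted p = 7.5e-05). SLC7A2 had nearer levels in DMSO, 19.2 ± 0.594 CPM in parental and 22.9 ± 4.40 CPM in KI cells, and rose to 26.5 ± 2.40 and 137 ± 2.84 CPM (difference 2.12 ± 0.16, adjusted p = 3.9e-05). The levels of the lines are given side by side without a test.

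**Figure D5:**
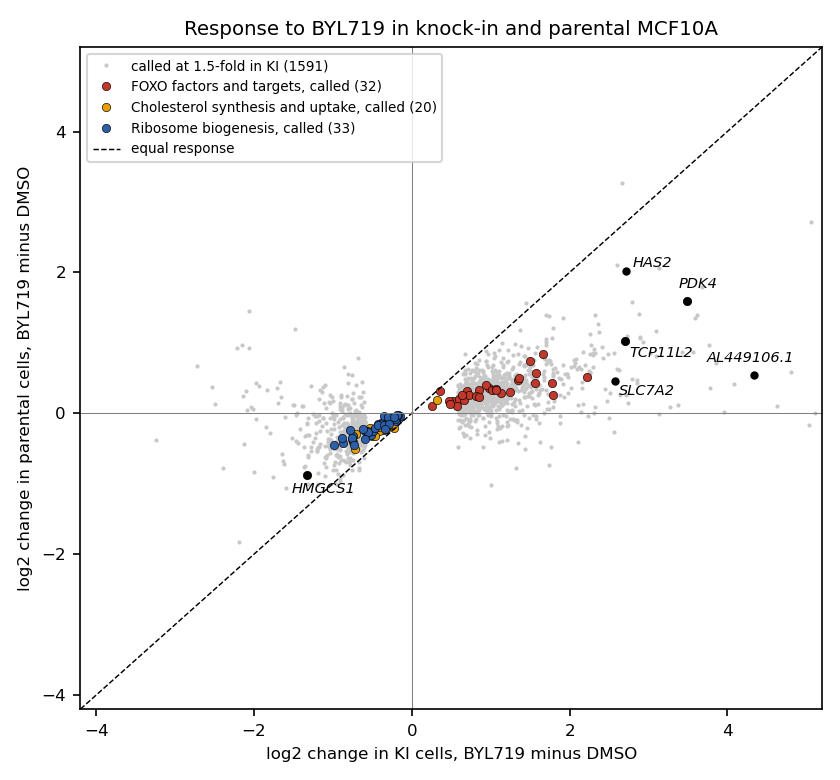
Log2 response to BYL719 in KI cells (x axis) and parental cells (y axis) of 1580 genes called at 1.5-fold or more in KI cells; 11 genes lie outside the axes. FOXO, cholesterol and ribosome biogenesis members are coloured, and 6 genes are named in black. The dashed line marks equal responses. Most points have the same sign in both lines and lie on the KI side of the line, which follows in part from their selection by the KI change.

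For PIK3CA itself the response was 0.25 in parental cells (57.4 ± 2.03 to 68.3 ± 2.70 CPM, not called) and 0.81 in KI cells, and the difference was called (0.56 ± 0.11, adjusted p = 0.02). The matrix signalling protein CCN1 was an exception in direction. It rose in KI cells from 22.8, 25.1 and 25.0 CPM to 38.8, 37.3 and 38.8 CPM (log2 0.66 ± 0.06) and fell in parental cells from 24.0 ± 0.791 to 19.7 ± 1.46 CPM (log2 -0.28, adjusted p = 0.045), with a difference of 0.94 ± 0.09 (adjusted p = 0.00015). HAS2 rose in both lines, by 2.72 in KI and 2.03 in parental cells. DCN, the matrix proteoglycan decorin, was chosen after its values were seen: it rose in both lines (log2 1.37 and 1.18), the difference of 0.19 ± 0.13 was not called (adjusted p = 0.50), and the levels were 141 ± 13.7 CPM in KI and 10.4 ± 0.415 CPM in parental cells under BYL719.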

How the data were processed

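RNA of 12 MCF10A libraries (RNeasy kit, HiSeq 2000, read pairs of 2 x 150 nt, per the labels' protocols) was analysed, 3 per line and treatment; strand and RNA selection were not stated. Per the submitters' processing notes, Trim Galore 0.6.1, cutadapt, Salmon 1.2.1, DESeq2 1.28.1 and GRCh38 were used. The authors deposited Salmon's estimated counts and TPM per transcript, per the file headers. Estimated counts were summed to genes and rounded here; TPM were summed for levels per length. edgeR 4.0.16 in R 4.3.3 fitted a quasi-likelihood model with 1 mean per group (8 residual degrees of freedom; TMM factors 0.9698 to 1.017; filterByExpr), with Benjamini-Hochberg adjustment over all genes tested and a threshold of 0.05. The script was tested on simulated counts. Alternatives used DESeq2 1.42.0, other normalisations, filters and left-out libraries. Named were the 15 largest rises and 15 largest falls under the rule given in the text, up to 4 called members per list, members whose role the text explains, PIK3CA and the 10 genes with the smallest p of the difference between lines. Members and the 35 lists were chosen with earlier results of these data known. Positions and promoters are RefSeq's (GRCh38.p14; 153 of 155 names matched); CCAAT was added after another motif had been searched. Some items are not reported here.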

Additional observations from a re-analysis of the deposited data

Results flagged for a closer look

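The response to BYL719 differed between the knock-in and parental lines, by a test of the difference itself (edgeR, adjusted over all genes tested), for 33 genes named under the largest rises, the largest falls, the smallest p-values or as the knocked-in gene. Each value here is the log2 response of the knock-in line minus that of the parental line. All 33 moved further in the knock-in line. They were named largely for a large change in that line, so this follows in part from the selection.

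Among regulators of PI3K and metabolism, the difference was 2.281 for PIK3IP1, 0.5567 for PIK3CA, 1.891 for PDK4, 1.463 for GLUL (glutamine synthetase) and 2.116 for SLC7A2 (a cationic amino acid transporter). It was 1.462 for GAB2, a docking protein of receptor signalling, and 1.443 for BMF, a pro-death BCL2 relative. Among genes of transcription and growth control it was 0.8729 for CCNG2, 1.243 for FOXL1, 1.714 for BACH2, 1.71 for YPEL3, 1.354 for KLHL24 and 1.37 for DKK1, a secreted Wnt antagonist.

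The difference was 1.09 for CALHM2, 1.21 for ABCA6 and 0.6892 for HAS2, which makes hyaluronan. It was 1.687 for TCP11L2, 2.244 for CCDC85A, 0.8835 for RPGR, 0.8543 for SMIM3, 1.415 for the interferon-inducible GTPase gene GBP2 and 3.792 for AL449106.1, a transcript known only by its clone name.

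Among genes that fell, the difference was -0.444 for HMGCS1 (cholesterol synthesis), -0.7337 for the heat shock gene HSPA1A, -0.7036 for OSGIN1 and -0.9481 for RHOV. It was -0.9737 for the cell cycle inhibitor CDKN1C, -0.6467 for PPIF and -1.198 for KRT16. It was -0.5377 for the ribosome assembly factor RRS1, -0.5674 for GPATCH4 and -0.7672 for YRDC. HSPA1A has a near-identical neighbour, HSPA1B, and KRT16 has pseudogene copies, so their counts are uncertain. For CXCR5 the difference was -1.192, and without KI DMSO 2 it was not called (adjusted p = 0.095).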

How the results depend on the processing

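With the 6 knock-in libraries alone in the edgeR model, 2610 genes were called (1445 rose, 1165 fell), of which 316 fell at least 1.5-fold. With those libraries alone and KI DMSO 2 left out, 5290 genes were called (2719 rose, 2571 fell), of which 314 fell at least 1.5-fold. Leaving out each library in turn gave 4237 to 6977 calls in the knock-in line and 239 to 1874 for the difference between lines, the highest of both without KI DMSO 2. Calls of the difference fell from 606 to 301 and 287 without KI BYL719 2 or 3, to 239, 254 and 295 without parental BYL719 1, 2 or 3, and to 346, 273 and 243 without parental DMSO 1, 2 or 3. The difference had 1429 calls by DESeq2 and 272 with effective-length offsets.

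No alternative reversed a named gene: of 1896 gene values, 1845 kept their direction and side of the threshold and 51 lost the call. The 51 belonged to 24 of 146 genes. Among those lost with a library were COL1A2 (KI BYL719 3 or any KI DMSO), BBC3 and TGFA (KI BYL719 2), TGFA, SCD and LUM (KI BYL719 3) and CSF3 and IER3 (KI DMSO 2); the cause was not tested. With effective-length offsets ELF3, LATS2, MCM10, MYH11, RRM2 and TGFA were among those not called. The medians of 7 of 35 lists, changed sign in at least 1 alternative (ribosomal proteins, fibroblast, immediate early, interferon, luminal, NF-kB and pyruvate dehydrogenase genes).

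The replicate block gave 5818 knock-in calls and 443 for the difference. Same-numbered libraries deviated together weakly (r = 0.058, 0.060 and 0.016 in the knock-in line), so the numbers were not taken as pairs, although every library correlated best with its own number, a hint from the data only. At 129903961 to 142599972 read pairs per knock-in library, the precision of low-count genes is still limited by counting, and p-values measure the spread between these libraries, which the labels do not say came from separate cultures.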

Other observations

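Other gene families were read from the table after its values had been seen, over members above 1 CPM, so their counts are a description with no test of the family. Of all 12206 coding genes above 1 CPM, 2328 rose and 2439 fell in KI cells (39.1% called), and 2568 rose and 3324 fell without KI DMSO 2 (48.3% called). Among molecular chaperones, 12 of 14 genes of the HSPA (HSP70) family fell and 1 rose (median log2 -0.33), and 13 fell without KI DMSO 2. The DNAJ co-chaperones went both ways: of 38, 12 fell and 8 rose (median -0.06; 14 and 9 without KI DMSO 2). HSPA8, the constitutive cytosolic member, had 3092, 3100 and 3105 CPM under DMSO and 1919, 1871 and 1781 CPM under BYL719, and it fell by 0.74 ± 0.04 on the log2 scale. HSPA6, which stress induces, fell by 1.19, and HSPA5, the chaperone of the endoplasmic reticulum, fell by 0.21. Genes of protein import into mitochondria moved the same way: 12 of 15 TIMM genes (inner membrane) and 5 of 8 TOMM genes (outer membrane) fell and none of either family rose. TIMM8A fell by 0.67 and TIMM17A by 0.57. Of the mitochondrial ribosome's proteins, 24 of 49 MRPL and 12 of 29 MRPS genes fell and 0 rose (median log2 -0.26 and -0.21). Without KI DMSO 2 those counts of falls were 30 and 16, but the medians were smaller, -0.14 and -0.10.

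Among genes of RNA processing, 9 of 12 SRSF splicing factors fell and none rose. Of 22 HNRNP genes 6 fell and 1 rose (7 and 3 without KI DMSO 2), with a median log2 of -0.06. SRSF7 had 147, 183 and 154 CPM under DMSO and 85.4, 81.7 and 84.4 CPM under BYL719. Of 17 TRMT genes, which modify transfer RNA, 12 fell and 1 rose, and of 34 DDX helicases 18 fell and 1 rose. Families with more rises than falls included histone demethylases (KDM), of which 9 of 17 rose and none fell (9 and 1 without KI DMSO 2). KDM3A had 31.9, 23.5 and 28.8 CPM under DMSO and 46.6, 51.5 and 49.7 CPM under BYL719, the lowest of them in KI DMSO 2. All 4 YPEL genes above 1 CPM rose, YPEL1 by 2.26, YPEL2 by 1.27 and YPEL5 by 0.69 beside the YPEL3 rise given in the text.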
